A study of Mus musculus with 12 samples.

Results

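Surface markers by which fibroblast subsets of the intestinal wall are told apart were followed in cultured fibroblasts of the mouse colon. The group holds 10 genes given by name: the growth factor receptors Pdgfra and Pdgfrb, the membrane-anchored proteins Thy1, Ly6a and Ly6c1, the sialomucin Cd34, the tetraspanin Cd81, the chemokine-binding receptor Ackr4, and Pi16 and Dpt, which mark adventitial fibroblasts. Of these 10, 9 were among the 23106 genes measured and Pi16 was not analysed here. The test took genes whose mean over all libraries reached 10 normalised reads, which kept 8 markers among 12676 genes and left Ackr4 out. Thy1 and Dpt were close to 0 in 1 group each and passed the minimum through the other groups.

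There were 12 libraries in 3 groups of 4: fibroblasts labelled Prkcz-/- that carried a guide against Sox2 (Sox2-guide), fibroblasts labelled Prkcz-/- with the guide sgScr (knockout-labelled), and fibroblasts labelled WT with sgScr (WT-labelled). All came from the colon of C57BL/6 mice aged 12 weeks, grew in medium with 10% serum and were collected untreated, 24 h after plating, near 80% confluency. Whether the Prkcz allele was lost in the germ line or in certain cells, and whether the guide-carrying cells were clones or pools, was not given in the sources used here. The replicates are called biological, with nothing said of separate animals or cultures, so the spread behind each p-value may be technical. Each group enters 2 of the 3 comparisons, which are therefore not independent of each other.

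Fibroblasts of the gut wall lie in layers. Cells just under the epithelium carry much PDGFRA and secrete BMP ligands, cells deeper in the mucosa and around the crypt base carry less PDGFRA together with CD81 and secrete the BMP antagonist Gremlin 1, and cells of the adventitia around vessels carry PI16, CD34 and LY6A. PDGFRB is broader and is also high on pericytes. Most of these proteins serve as handles for cell sorting, but they have roles of their own, and in culture a transcript level does not give the place a cell came from.

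Levels are normalised reads, that is a gene's reads after every library was scaled to a total of 10000000 over all genes. The libraries held 2.67 to 5.20 M reads and 14906 to 16639 detected genes, and a lone read therefore counted as 1.92 to 3.75 normalised reads. Values rest on tags at the 3′ end of messenger RNA, so they are compared for 1 gene between libraries and not between genes. Sox2 had 0 reads in the Sox2-guide, 1347 ± 76.4 normalised reads in the knockout-labelled and 1.72 ± 2.00 in the WT-labelled libraries (SD, n = 4 each). Prkcz averaged 34.8 ± 11.8 and 21.3 ± 8.03 normalised reads in the Sox2-guide and knockout-labelled libraries, against 0 reads in the WT-labelled libraries. Prkcz was thus higher in both Prkcz-/- groups than in the WT-labelled group, which goes against the labels. If the tag lies outside the deleted part, reads left in the Prkcz-/- groups do not check the deletion. Why the WT-labelled libraries had none was not tested. The groups are named by their labels throughout. Replicate 1 of the Sox2-guide group stood apart: pairs of replicates that included it differed more (chi-square per degree of freedom 28.1 to 31.5) than the other 15 pairs (1.28 to 5.36), and mitochondrial genes took 4.29% of its reads. Malat1, a nuclear RNA, took 0.505 ± 0.127% of reads in the Sox2-guide, 1.42 ± 0.0602% in the knockout-labelled and 0.472 ± 0.0542% in the WT-labelled libraries, and its part in the changes of the knockout-labelled group was not tested.

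Of the 8 tested markers, some were higher and some lower in each comparison. Changes are differences of mean log2(value + 1) with their standard error from 1 limma fit over all genes, called at a Benjamini-Hochberg adjusted p under 0.05. In the knockout-labelled against the WT-labelled libraries, Pdgfra, Pdgfrb and Cd81 rose, while Thy1, Cd34, Ly6a, Ly6c1 and Dpt fell. In the Sox2-guide against the knockout-labelled libraries, Cd34, Ly6a, Ly6c1 and Dpt rose and Pdgfra, Pdgfrb, Thy1 and Cd81 fell. In the Sox2-guide against the WT-labelled libraries, Pdgfrb, Ly6a and Ly6c1 rose, Pdgfra, Thy1, Cd34 and Dpt fell, and Cd81 passed as higher by a narrow margin. In RNA from whole cultures, fewer cells of a type and less RNA per cell cannot be told apart.

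Calls were common among all genes, so a call alone sets no marker apart. In the knockout-labelled against the WT-labelled libraries, 67.0% of tested genes were called (37.6% higher, 29.4% lower), beside 3 markers higher and 5 lower. In the Sox2-guide against the knockout-labelled libraries, 60.7% were called (30.5% higher, 30.2% lower), beside 4 markers higher and 4 lower. In the Sox2-guide against the WT-labelled libraries, 52.0% were called (30.1% higher, 22.0% lower), again beside 4 higher and 4 lower. Groups that did not overlap were found for 8, 8 and 7 markers in these comparisons, and for 66.0%, 53.6% and 46.6% of all tested genes. The markers' median log2 change was -2.64, 0.44 and -0.28, beside 0.12, -0.01 and 0.08 for all tested genes. The markers differed more in size than in call. In the knockout-labelled against the WT-labelled libraries, 99.9% of tested genes changed less than Dpt and 70.4% less than Cd81.

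**Figure D1:**
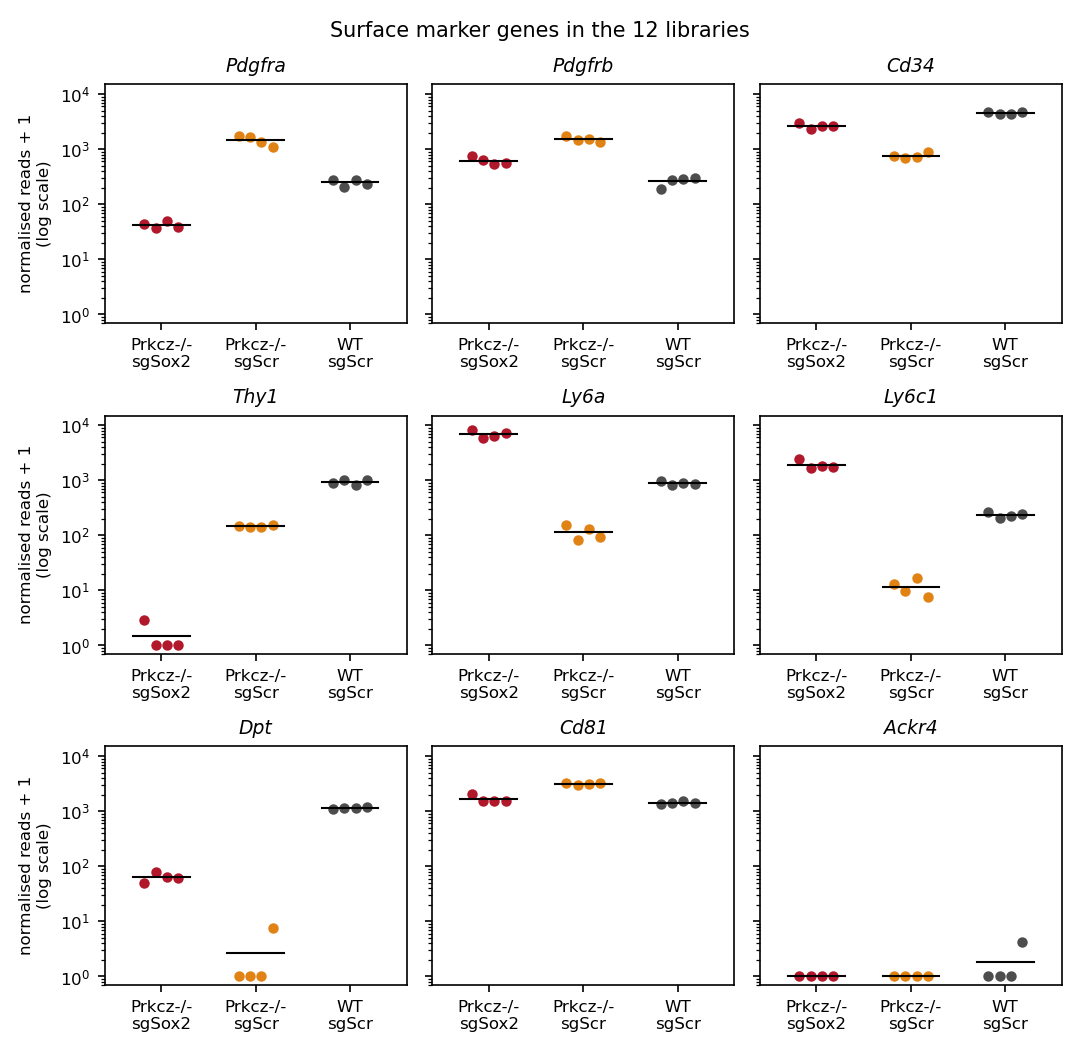
Normalised reads plus 1, on a log axis, of the 9 measured surface marker genes in every library (points) with the group mean (line), for the Prkcz-/- sgSox2, Prkcz-/- sgScr and WT sgScr libraries. Ly6a and Ly6c1 were highest with the Sox2 guide, Pdgfra, Pdgfrb and Cd81 in the knockout-labelled libraries, and Thy1, Cd34 and Dpt in the WT-labelled libraries.

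**Figure D2:**
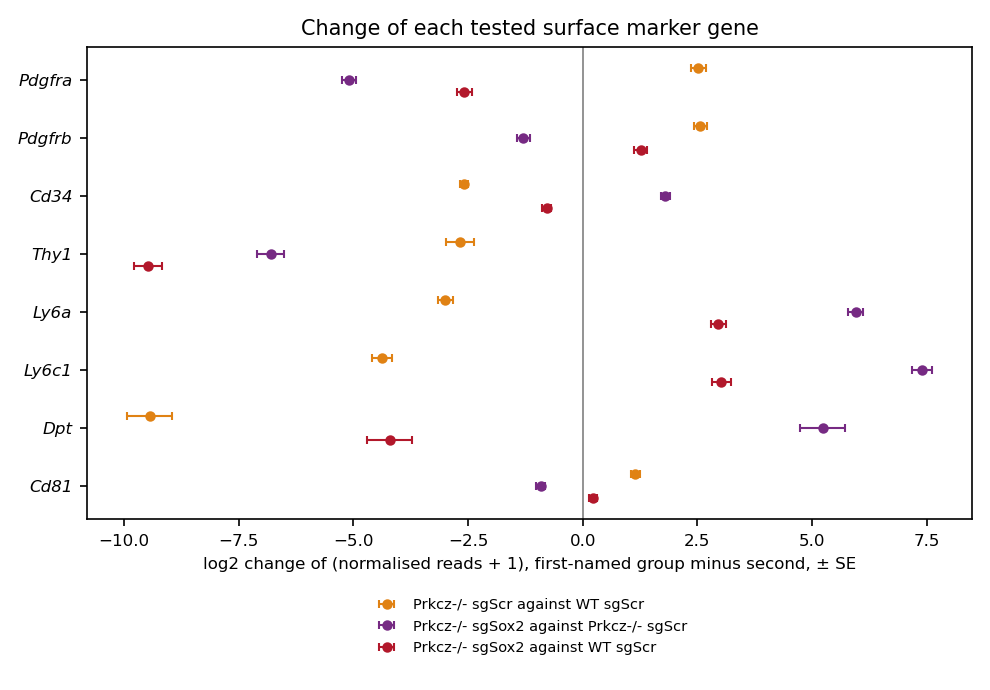
Log2 change of each tested marker in the 3 comparisons, with its standard error from the limma fit. Dpt had the largest change in the knockout-labelled against the WT-labelled libraries (-9.45) and Thy1 the largest in the Sox2-guide against the WT-labelled libraries (-9.49).

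Windows of 250 bases before the RefSeq start site (GRCm38.p6) were read for 7 of the 10 genes. The 4 below are shown because they cover 3 orders of groups seen among the markers: Dpt and Cd34 were highest in the WT-labelled and lowest in the knockout-labelled libraries, Ly6c1 was highest with the Sox2 guide and lowest in the knockout-labelled libraries, and Pdgfra was highest in the knockout-labelled libraries and lowest with the Sox2 guide. Each is written 5′ to 3′ along the gene, ends at the base before the start site, and has motif matches in capitals.
Dpt, chr1:164796413-164796662, plus strand: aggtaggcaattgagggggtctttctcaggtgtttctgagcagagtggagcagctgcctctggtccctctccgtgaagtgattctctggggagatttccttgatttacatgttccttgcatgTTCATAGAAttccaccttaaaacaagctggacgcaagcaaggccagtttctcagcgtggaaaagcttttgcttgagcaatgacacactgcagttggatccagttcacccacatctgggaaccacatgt
Cd34, chr1:194938571-194938820, plus strand: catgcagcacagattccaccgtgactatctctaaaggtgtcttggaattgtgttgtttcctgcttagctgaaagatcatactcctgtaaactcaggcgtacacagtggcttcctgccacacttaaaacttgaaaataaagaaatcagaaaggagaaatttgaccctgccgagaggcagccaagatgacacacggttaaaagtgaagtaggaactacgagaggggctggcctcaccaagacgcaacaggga
Ly6c1, chr15:75048838-75049087, minus strand: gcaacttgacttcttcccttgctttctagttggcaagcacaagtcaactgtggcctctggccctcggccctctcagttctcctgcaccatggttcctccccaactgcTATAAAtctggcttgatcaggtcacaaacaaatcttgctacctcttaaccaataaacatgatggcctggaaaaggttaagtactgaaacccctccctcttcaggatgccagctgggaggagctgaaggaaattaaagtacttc
Pdgfra, chr5:75152001-75152250, plus strand: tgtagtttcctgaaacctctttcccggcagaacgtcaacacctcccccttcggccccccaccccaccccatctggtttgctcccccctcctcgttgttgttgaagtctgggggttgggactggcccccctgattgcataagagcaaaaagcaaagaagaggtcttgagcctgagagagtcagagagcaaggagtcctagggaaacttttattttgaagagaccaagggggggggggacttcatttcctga
Both strands of each window were searched for the SOX core motifs ACAATG and ACAAAG, the STAT palindrome TTCNNNGAA and the TATA box TATAAA. None of these motifs overlapped another match. The Dpt window held TTCATAGAA at -128, and 7.11% of 27025 promoter windows of the same length hold that palindrome. The Ly6c1 window held TATAAA at -143, a motif found in 12.9% of windows. The Cd34 and Pdgfra windows had no match to any of the 4 motifs, nor did that of Cd81. The Pi16 window held the second SOX form on the other strand at -30 and the Ackr4 window TATAAA at -185. For these genes the start site used lay 1202 and 290 bases from the GENCODE start, against at most 41 bases for the other windows. The Pi16 and Ackr4 windows thus lay wholly inside their annotated genes. Over all windows, ACAATG occurred in 10.9% and ACAAAG in 16.7%. A match is a run of letters and was not tested for binding.

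The PDGF receptors bind platelet-derived growth factors at the cell surface and signal through their own tyrosine kinase domains. Pdgfra (ENSMUSG00000029231, chromosome 5, 75152292 to 75198215, plus strand, GRCm38) had 42.3, 35.6, 48.7 and 37.0 normalised reads in the 4 Sox2-guide libraries. It had 1707, 1647, 1330.03 and 1107 in the knockout-labelled libraries, and 279, 209, 272 and 237 in the WT-labelled libraries. The groups were apart in every comparison, with the knockout-labelled libraries highest and the Sox2-guide libraries lowest. Pdgfra was 5.81-fold higher in the knockout-labelled than in the WT-labelled libraries (log2 change 2.52 ± 0.16, adjusted p = 5.8e-10). With the Sox2 guide it was 35.4-fold lower than in the knockout-labelled libraries (-5.10 ± 0.16, adjusted p = 1.8e-13). It also lay 6.10-fold below the WT-labelled libraries (-2.58 ± 0.16, adjusted p = 1.1e-09).

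Pdgfrb (ENSMUSG00000024620, chromosome 18, 61045150 to 61085061, plus strand) had 759, 632, 528 and 566 normalised reads in the Sox2-guide libraries. Its values were 1707, 1490.0, 1555 and 1329.98 in the knockout-labelled and 188, 271, 284 and 296 in the WT-labelled libraries. No library of any group overlapped another group, and the order differed from that of Pdgfra, with the WT-labelled libraries lowest. The rise in the knockout-labelled against the WT-labelled libraries was 5.85-fold (2.56 ± 0.14, adjusted p = 1.4e-10). In the Sox2-guide libraries Pdgfrb was 2.45-fold lower than in the knockout-labelled libraries (-1.30 ± 0.14, adjusted p = 8.1e-07) and 2.39-fold above the WT-labelled libraries (1.26 ± 0.14, adjusted p = 1.8e-06).

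Whether the receptors changed by unequal amounts was tested with the log2 ratio of Pdgfra to Pdgfrb within each library, with 1 unit added to each value. Scaling of the library cannot alter the plain ratio, and it enters the log2 ratio only through the added unit. The mean log2 ratio was -3.89 ± 0.34 in the Sox2-guide, -0.09 ± 0.19 in the knockout-labelled and -0.05 ± 0.43 in the WT-labelled libraries (SD, n = 4 each). The ratio was 0.0557 to 0.0922 with the Sox2 guide, 0.832 to 1.11 in the knockout-labelled and 0.773 to 1.48 in the WT-labelled libraries. It was lower with the Sox2 guide than in the knockout-labelled and the WT-labelled libraries, with log2 differences of -3.80 and -3.84, with no overlap between groups. Each gave p = 0.0286 in an exact two-sided permutation test over 70 assignments, the smallest p that 4 against 4 libraries allow, and 0.0429 adjusted over the 3 comparisons. Between the knockout-labelled and the WT-labelled libraries the difference was -0.04 with overlapping ranges (exact permutation p = 0.943, adjusted p = 0.943). A difference smaller than the spread of these ratios was not detectable.

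**Figure D3:**
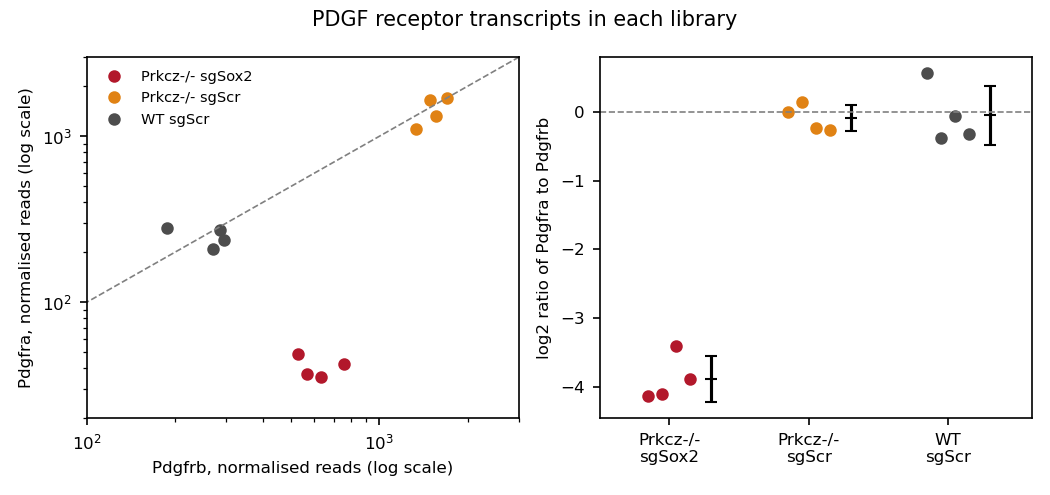
Left, normalised reads of Pdgfra against Pdgfrb in each of the 12 libraries on log axes, with the dashed line at equal values. Right, the log2 ratio of Pdgfra to Pdgfrb per library with the group mean and SD (n = 4 each). The Sox2-guide libraries lie near -3.89, away from the other groups near 0.

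The ligands of these receptors were measured in the same libraries. Pdgfa and Pdgfc, which act mainly through PDGFRA, had their highest means in the knockout-labelled libraries. Pdgfa averaged 279.7 ± 37.8 normalised reads in the Sox2-guide, 409 ± 21.6 in the knockout-labelled and 195 ± 18.5 in the WT-labelled libraries. Pdgfc averaged 297 ± 17.2 in the Sox2-guide, 488 ± 48.7 in the knockout-labelled and 192 ± 41.1 in the WT-labelled libraries. Both rose in the knockout-labelled against the WT-labelled libraries (Pdgfa 1.07 ± 0.12, adjusted p = 1.1e-06; Pdgfc 1.36 ± 0.14, adjusted p = 3e-07). With the Sox2 guide both fell relative to the knockout-labelled libraries, with log2 changes of -0.55 for Pdgfa (adjusted p = 0.001) and -0.71 for Pdgfc (adjusted p = 0.00039). Pdgfd, a ligand of PDGFRB, had another order, at 34.8 ± 5.88 in the Sox2-guide, 79.9 ± 16.0 in the knockout-labelled and 282 ± 41.3 in the WT-labelled libraries. It fell in the knockout-labelled against the WT-labelled libraries (-1.82 ± 0.20, adjusted p = 6.8e-07) and was lowest with the Sox2 guide. Pdgfb was too low to test, with 11 reads in the Sox2-guide, 14 in the knockout-labelled and 1 in the WT-labelled group.

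Thy1 encodes CD90, an immunoglobulin-fold protein held in the membrane by a lipid anchor and widely used to mark fibroblasts. Thy1 (ENSMUSG00000032011, chromosome 9, 44043384 to 44048579, plus strand) had 1 read in Sox2-guide replicate 1 (1.92 normalised reads) and 0 in the other replicates of that group. It had 146, 140.0, 141 and 155 normalised reads in the knockout-labelled libraries and 903, 1004, 835 and 1025 in the WT-labelled libraries. The groups formed 3 separate levels, with the Sox2-guide libraries at the limit of detection. Thy1 was 6.47-fold lower in the knockout-labelled than in the WT-labelled libraries (-2.68 ± 0.30, adjusted p = 7.4e-07). From reads summed per group and set against depth, it was 239-fold lower in the Sox2-guide than in the knockout-labelled libraries, with a 95% counting interval of 42.4 to 9479. Against the WT-labelled libraries the Sox2-guide libraries were 1539-fold lower, with an interval of 276 to 60828. The limma changes were -6.81 ± 0.30 (adjusted p = 1.3e-11) and -9.49 ± 0.30 (adjusted p = 3.2e-13), and their size depends on the 1 unit added before the log. Intervals cover counting error only.

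Cd34 encodes a sialomucin of the cell surface, found on blood progenitors, endothelium and many tissue fibroblasts. Cd34 (ENSMUSG00000016494, chromosome 1, 194938819 to 194961279, plus strand) had 3007, 2332, 2672 and 2667 normalised reads in the Sox2-guide libraries. Its values were 768, 688, 714 and 896 in the knockout-labelled and 4747, 4398, 4444 and 4807 in the WT-labelled libraries. The WT-labelled libraries were highest and the knockout-labelled lowest, without overlap, and the Sox2-guide libraries lay between them. Cd34 was 6.00-fold lower in the knockout-labelled than in the WT-labelled libraries (-2.59 ± 0.09, adjusted p = 7e-13). With the Sox2 guide it was 3.48-fold higher than in the knockout-labelled (1.80 ± 0.09, adjusted p = 8.5e-11) and 1.72-fold lower than in the WT-labelled libraries (-0.79 ± 0.09, adjusted p = 3.1e-06). Of its sialomucin relatives, Podxl (podocalyxin) averaged 127 ± 32.4 in the Sox2-guide, 13.8 ± 3.48 in the knockout-labelled and 35.2 ± 11.5 in the WT-labelled libraries. Podxl fell in the knockout-labelled against the WT-labelled libraries (-1.28 ± 0.29, adjusted p = 0.00095) and was higher with the Sox2 guide than in either group. Podxl2 had 15 reads in the Sox2-guide, 27 in the knockout-labelled and 0 in the WT-labelled group and was not tested.

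Ly6a and Ly6c1 belong to a cluster of genes for small lipid-anchored proteins. Ly6a encodes SCA-1, used to sort stem-like and adventitial stromal cells, and Ly6c1 encodes LY6C1, of the LY6C antigens best known from monocytes and some endothelium. They lie 46.0 kb apart on the minus strand of chromosome 15 (Ly6a ENSMUSG00000075602, 74994877 to 74998031; Ly6c1 ENSMUSG00000079018, 75044018 to 75048830). Ly6a had 8327, 5884, 6487 and 7204 normalised reads in the Sox2-guide libraries. The knockout-labelled libraries had 152, 81.6, 128 and 93.8, and the WT-labelled libraries 981, 812, 904 and 864. Every Sox2-guide library was above every other library, and every knockout-labelled library below. Ly6a was 7.80-fold lower in the knockout-labelled than in the WT-labelled libraries (-2.99 ± 0.16, adjusted p = 7.3e-11). With the Sox2 guide it was 61.2-fold higher than in the knockout-labelled (5.95 ± 0.16, adjusted p = 3.5e-14) and 7.84-fold above the WT-labelled libraries (2.96 ± 0.16, adjusted p = 2.3e-10).

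Ly6c1 had the same order of groups. Its values were 2411, 1700.3, 1818 and 1751 normalised reads in the Sox2-guide libraries, 12.2, 8.75, 15.6 and 6.47 in the knockout-labelled libraries, and 266, 206, 221 and 243 in the WT-labelled libraries. The knockout-labelled values rest on 2 to 6 reads per library, 16 in all. Ly6c1 was 21.8-fold lower in the knockout-labelled than in the WT-labelled libraries (-4.38 ± 0.21, adjusted p = 2.1e-11). It was 178-fold higher with the Sox2 guide than in the knockout-labelled libraries (7.40 ± 0.21, adjusted p = 7e-14; 95% counting interval of the ratio of summed reads 110.1 to 314). Against the WT-labelled libraries the Sox2-guide libraries were 8.20-fold higher (3.02 ± 0.21, adjusted p = 5.7e-09). Reads of near-identical copies can be split: of the 75-base windows in the last 300 bases of its transcripts, 21.8% also occur in Ly6a or Ly6c2, while only 1 of 526 such windows of Ly6a occurs in another gene, Ly6c1. Ly6c2 itself had 3 reads in the Sox2-guide, 0 in the knockout-labelled and 1 in the WT-labelled group.

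Among other genes of the Ly6 and uPAR family, 5 of 24 listed were tested. In the knockout-labelled against the WT-labelled libraries 4 rose and 1 fell, with a median log2 change of 1.63. In the Sox2-guide against the knockout-labelled libraries 2 rose and 2 fell (median -0.07), and against the WT-labelled libraries 2 rose and 1 fell (median 0.73). The median of -0.07 has no stable sign: it was 0.22 with quantile scaling, where 1 gene fell, and -0.01 without Sox2-guide replicate 1. With edgeR on the recovered reads, 3 rose in each comparison with the WT-labelled libraries. Ly6e, a broadly expressed relative, averaged 5572 ± 993 normalised reads in the Sox2-guide, 1752 ± 173 in the knockout-labelled and 1435 ± 99.5 in the WT-labelled libraries. Like Ly6a it was highest with the Sox2 guide (1.66 ± 0.11 against the knockout-labelled libraries, adjusted p = 2.1e-09). Unlike Ly6a it was called higher, by a small amount, in the knockout-labelled than in the WT-labelled libraries (0.29 ± 0.11, adjusted p = 0.033). Cd59a, an inhibitor of complement, was highest in the knockout-labelled libraries, at 25.3 ± 11.7 in the Sox2-guide, 309 ± 29.6 in the knockout-labelled and 29.6 ± 16.6 in the WT-labelled libraries. Lypd6 rose in all 3 comparisons, by 2.53 in the knockout-labelled against the WT-labelled libraries and by 1.46 and 3.98 on the log2 scale with the Sox2 guide against the knockout-labelled and the WT-labelled libraries. Plaur, the urokinase receptor, fell in the knockout-labelled against the WT-labelled libraries (log2 change -0.85) and in the Sox2-guide against the WT-labelled libraries (-0.92). Lynx1 fell in the Sox2-guide against the knockout-labelled libraries (-0.90, adjusted p = 0.021).

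Dpt encodes dermatopontin, a secreted matrix protein that is not itself on the cell surface and that is used with PI16 to mark adventitial fibroblasts in many organs. Dpt (ENSMUSG00000026574, chromosome 1, 164796644 to 164824266, plus strand) had 48.1, 77.9, 63.7 and 59.3 normalised reads in the Sox2-guide libraries. It had 0 in knockout-labelled replicates 1 to 3 and 6.47, which is 2 reads, in replicate 4. The WT-labelled libraries had 1107, 1137, 1164 and 1202. The WT-labelled libraries were far above the rest and the Sox2-guide libraries were all above the knockout-labelled ones. From summed reads Dpt was 844-fold lower in the knockout-labelled than in the WT-labelled libraries (95% counting interval 233 to 6975; limma -9.45 ± 0.49, adjusted p = 5.1e-11). It was 45.0-fold higher with the Sox2 guide than in the knockout-labelled libraries (interval 12.1 to 377; limma 5.24 ± 0.49, adjusted p = 1.1e-07). The Sox2-guide libraries still lay 18.5-fold below the WT-labelled libraries (-4.21 ± 0.49, adjusted p = 2.3e-06).

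Other genes of Pi16+ adventitial fibroblasts did not share 1 direction. Of 13 listed, 9 were tested: 3 rose and 6 fell in the knockout-labelled against the WT-labelled libraries (median -0.96), 4 rose and 4 fell in the Sox2-guide against the knockout-labelled libraries (median 0.37), and 4 rose and 3 fell in the Sox2-guide against the WT-labelled libraries (median 0.41). The median of 0.37 was 0.25 without Sox2-guide replicate 1 and 0.58 with quantile scaling. Igfbp6, an insulin-like growth factor binding protein, was, as Ly6a was, lowest in the knockout-labelled libraries, at 443 ± 89.7 in the Sox2-guide, 7.32 ± 3.53 in the knockout-labelled and 279 ± 37.3 in the WT-labelled libraries. It fell by 5.17 on the log2 scale in the knockout-labelled against the WT-labelled libraries (adjusted p = 6.2e-11) and rose by 5.82 with the Sox2 guide against the knockout-labelled libraries (adjusted p = 2.2e-11). Mfap5, a microfibril protein, had the order of Thy1, with 0.481 ± 0.961 in the Sox2-guide, 17.9 ± 9.02 in the knockout-labelled and 166 ± 18.1 in the WT-labelled libraries. It was tested only through the WT-labelled group, so its lower calls against that group, among the 6 and the 3, were favoured by the minimum. Fbn1 (fibrillin 1) and Cd248 (endosialin) went the other way and were highest in the knockout-labelled libraries, at 2447 ± 84.1 and 614 ± 61.6, against 422 ± 71.5 and 80.6 ± 16.7 in the WT-labelled libraries. With the Sox2 guide Fbn1 averaged 619 ± 61.5 and Cd248 122 ± 40.4. Sema3c, a semaphorin, fell in the knockout-labelled against the WT-labelled libraries (-1.85, adjusted p = 2.2e-08) and in the Sox2-guide against the WT-labelled libraries (-1.24, adjusted p = 5.7e-06). Anxa3 (annexin A3) rose with the Sox2 guide against the knockout-labelled (0.90, adjusted p = 2e-07) and the WT-labelled libraries (0.41, adjusted p = 0.00094).

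Pi16 itself has no value to report, but relatives of its CAP superfamily were measured, and 4 of 8 were tested. In the knockout-labelled against the WT-labelled libraries 2 rose and 2 fell, in the Sox2-guide against the knockout-labelled libraries again 2 rose and 2 fell, and in the Sox2-guide against the WT-labelled libraries 1 rose and 2 fell. Without Sox2-guide replicate 1 these counts were 1 higher and 2 lower against the knockout-labelled libraries, as with quantile scaling, and 1 higher and 3 lower against the WT-labelled libraries, as with edgeR. Glipr1 averaged 1021 ± 194 in the Sox2-guide, 83.6 ± 25.2 in the knockout-labelled and 1308 ± 67.0 in the WT-labelled libraries, and was lowest in the knockout-labelled libraries, as Cd34 was. Crispld2, a secreted relative, averaged 42.5 ± 7.41 in the Sox2-guide, 878 ± 68.8 in the knockout-labelled and 128 ± 43.3 in the WT-labelled libraries, the order of Pdgfra. Pi15, a peptidase inhibitor, fell in all 3 comparisons, with log2 changes of -2.64 in the knockout-labelled against the WT-labelled libraries and of -3.38 and -6.02 with the Sox2 guide against the knockout-labelled and the WT-labelled libraries. Glipr2 rose by 1.81 in the knockout-labelled against the WT-labelled libraries, by 0.32 in the Sox2-guide against the knockout-labelled libraries (adjusted p = 0.032) and by 2.13 in the Sox2-guide against the WT-labelled libraries.

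Cd81 encodes a tetraspanin, a protein that crosses the membrane repeatedly and gathers partners such as integrins into patches. Cd81 (ENSMUSG00000037706, chromosome 7, 143052739 to 143067934, plus strand) had 2034, 1551, 1518 and 1544 normalised reads in the Sox2-guide libraries. It had 3226, 2989, 3083 and 3197 in the knockout-labelled and 1334, 1383, 1535 and 1386 in the WT-labelled libraries. The knockout-labelled libraries were above all others, and the remaining groups overlapped. Cd81 was 2.22-fold higher in knockout-labelled than in the WT-labelled libraries (1.15 ± 0.09, adjusted p = 1.2e-08) and 1.88-fold lower with the Sox2 guide than in the knockout-labelled libraries (-0.92 ± 0.09, adjusted p = 2.6e-07). The Sox2-guide against the WT-labelled libraries gave 1.18-fold (0.23 ± 0.09, adjusted p = 0.0486), and without Sox2-guide replicate 1 the change was 0.13 (adjusted p = 0.0884). Cd81 overlaps R74862 on the other strand, which averaged 26.0 normalised reads, and the sources used here do not say whether reads were counted by strand.

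The other tetraspanins and CD81 partners had no shared direction. Of 27 listed, 18 were tested, with 5 higher and 7 lower in the knockout-labelled against the WT-labelled libraries (median -0.17), 6 higher and 6 lower in the Sox2-guide against the knockout-labelled libraries (median -0.11), and 5 higher and 7 lower in the Sox2-guide against the WT-labelled libraries (median -0.18). The median of -0.17 was -0.36 with quantile scaling, where 9 were lower, and that of -0.11 was -0.23 without Sox2-guide replicate 1, where 5 were higher. Cd9, the close relative of CD81 in sperm-egg fusion and cell adhesion, averaged 1012 ± 223 in the Sox2-guide, 1049 ± 156 in the knockout-labelled and 2269.7 ± 118 in the WT-labelled libraries. Unlike Cd81 it fell in the knockout-labelled against the WT-labelled libraries (-1.12 ± 0.14, adjusted p = 1.6e-06). Cd82 rose there (2.91 ± 0.21, adjusted p = 2.5e-09), with 144 ± 18.6 in the Sox2-guide, 203 ± 40.9 in the knockout-labelled and 26.2 ± 5.74 in the WT-labelled libraries. Cd151, a partner of laminin-binding integrins, averaged 1160.5 ± 148 with the Sox2 guide, 549 ± 55.8 in the knockout-labelled and 779 ± 41.4 in the WT-labelled libraries, an order like that of Ly6a. Tspan17 rose in the knockout-labelled against the WT-labelled libraries (2.56) and in the Sox2-guide against the WT-labelled libraries (3.11), while Tspan7 fell in the Sox2-guide against the knockout-labelled libraries (-2.41) and in the Sox2-guide against the WT-labelled libraries (-2.74). Tspan14 fell in the knockout-labelled against the WT-labelled libraries (-1.35). Tspan5 rose (0.91) and Tspan2 fell (-2.66) in the Sox2-guide against the knockout-labelled libraries.

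Ackr4 encodes a receptor that takes up chemokines such as CCL19, CCL21 and CCL25 without G-protein signalling, and in the gut it marks fibroblasts of the submucosa. Ackr4 (ENSMUSG00000079355, chromosome 9, 104084157 to 104126933, minus strand) had 1 read in all 12 libraries, in WT-labelled replicate 4, where it stood for 3.29 normalised reads. The other 11 libraries had 0 reads, which allows a level of up to 3 reads, or 5.77 to 11.2 normalised reads depending on depth, so no difference was detectable at this depth. Among its ligands and the other atypical chemokine receptors, 2 of 7 listed genes were tested. Ackr3, a scavenger of CXCL12, averaged 63.2 ± 7.53 with the Sox2 guide, 30.6 ± 10.3 in the knockout-labelled and 61.9 ± 6.77 in the WT-labelled libraries. It fell in the knockout-labelled against the WT-labelled libraries (-1.05 ± 0.26, adjusted p = 0.0017) and rose with the Sox2 guide against the knockout-labelled libraries (1.08 ± 0.26, adjusted p = 0.0017). Ccl25, a ligand of ACKR4, fell in the knockout-labelled (-0.57 ± 0.16, adjusted p = 0.0048) and in the Sox2-guide libraries (-0.40 ± 0.16, adjusted p = 0.044) relative to the WT-labelled libraries, and the call for the Sox2-guide libraries was lost without their replicate 1.

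The subset programmes that these markers stand for were listed apart from the markers. Of 11 genes of PDGFRA-low stromal cells and trophocytes, 5 were tested, and 4 rose and none fell in the knockout-labelled against the WT-labelled libraries (median 1.80), while 5 fell and none rose in the Sox2-guide against the knockout-labelled libraries (median -2.35). Col15a1 was near 0 in the Sox2-guide and WT-labelled groups and was tested only because the knockout-labelled group was high, so its calls in both comparisons with that group were fixed by the minimum. Of the other 4 genes, 3 rose in the knockout-labelled against the WT-labelled libraries and 4 fell in the Sox2-guide against the knockout-labelled libraries. With edgeR on the recovered reads, and with quantile scaling, 1 of the 5 genes also fell in the knockout-labelled against the WT-labelled libraries. In the Sox2-guide against the WT-labelled libraries 3 rose and 1 fell (median 0.76). Grem1, the BMP antagonist, averaged 7105 ± 1164 in the Sox2-guide, 10985 ± 591 in the knockout-labelled and 4803 ± 239.8 in the WT-labelled libraries. Cxcl12, a chemokine of stromal niches, averaged 10214 ± 1163 in the Sox2-guide, 16065 ± 502 in the knockout-labelled and 4626 ± 123 in the WT-labelled libraries. Igf1 averaged 198 ± 15.5 with the Sox2 guide, 1013 ± 66.8 in the knockout-labelled and 113 ± 12.4 in the WT-labelled libraries. Col15a1, a basement membrane collagen, averaged 1.65 ± 1.13 with the Sox2 guide, 114 ± 27.9 in the knockout-labelled and 0.748 ± 1.5 in the WT-labelled libraries. All 4 thus had the order of Pdgfrb and Cd81, although for Col15a1 the Sox2-guide and WT-labelled groups did not pass the test (0.76 ± 0.58, adjusted p = 0.28). Rspo3, a ligand that strengthens WNT signals, stood apart from the rest of this list, with 0.937 ± 1.87 in the Sox2-guide, 19.6 ± 7.41 in the knockout-labelled and 46.0 ± 19.6 in the WT-labelled libraries.

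Of 13 genes of PDGFRA-high telocytes, 5 were tested, and 4 rose and 1 fell in the knockout-labelled against the WT-labelled libraries (median 0.76), 2 rose and 3 fell in the Sox2-guide against the knockout-labelled libraries (median -0.45), and 3 rose and none fell in the Sox2-guide against the WT-labelled libraries (median 0.82). F3, tissue factor, averaged 202 ± 93.6 in the Sox2-guide, 525 ± 150.4 in the knockout-labelled and 62.5 ± 28.2 in the WT-labelled libraries. Bmp4 averaged 564 ± 53.6 in the Sox2-guide, 453 ± 39.7 in the knockout-labelled and 267 ± 20.6 in the WT-labelled libraries, highest in the Sox2-guide libraries, where Pdgfra was lowest. Bmp3 fell in the knockout-labelled against the WT-labelled libraries (-1.68 ± 0.44, adjusted p = 0.0032) and rose with the Sox2 guide against the knockout-labelled libraries (1.59 ± 0.44, adjusted p = 0.0055). Nrg1 (neuregulin 1), an epithelial growth factor, rose in the knockout-labelled against the WT-labelled libraries (2.09, adjusted p = 3.3e-08), fell in the Sox2-guide against the knockout-labelled libraries (-1.26) and rose in the Sox2-guide against the WT-labelled libraries (0.82). Wnt5a fell in the Sox2-guide against the knockout-labelled libraries (-0.45).

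Other surface proteins used to sort stromal cells changed in both directions. Of 16 listed, 10 were tested, with 4 higher and 5 lower in the knockout-labelled against the WT-labelled libraries, 3 higher and 7 lower in the Sox2-guide against the knockout-labelled libraries, and 3 higher and 6 lower in the Sox2-guide against the WT-labelled libraries, at medians of -0.41, -0.49 and -0.89. Pdpn (podoplanin) averaged 1846 ± 284 in the Sox2-guide, 612 ± 44.1 in the knockout-labelled and 2835 ± 219 in the WT-labelled libraries, the order of Cd34. Alcam (CD166) averaged 23.0 ± 6.04 in the Sox2-guide, 80.1 ± 13.2 in the knockout-labelled and 2848 ± 143 in the WT-labelled libraries, the order of Thy1. Cdh11, a cadherin of mesenchyme, averaged 136 ± 57.7 in the Sox2-guide, 2064 ± 150.4 in the knockout-labelled and 274 ± 42.1 in the WT-labelled libraries, the order of Pdgfra. Itga8, an integrin subunit, had 1 read in the Sox2-guide group, 329 in the knockout-labelled group and 0 in the WT-labelled group. It was tested only through the knockout-labelled group, so its calls, 1 of the 4 higher and 1 of the 7 lower, were fixed by the minimum. Eng (endoglin), which overlaps another gene, rose with the Sox2 guide against the knockout-labelled (4.45) and the WT-labelled libraries (2.70). Vcam1 rose in the knockout-labelled against the WT-labelled libraries (0.93). The integrin subunit Itgav rose (0.68) and Itgb1 fell (-1.33) in the Sox2-guide against the WT-labelled libraries.

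**Figure D4:**
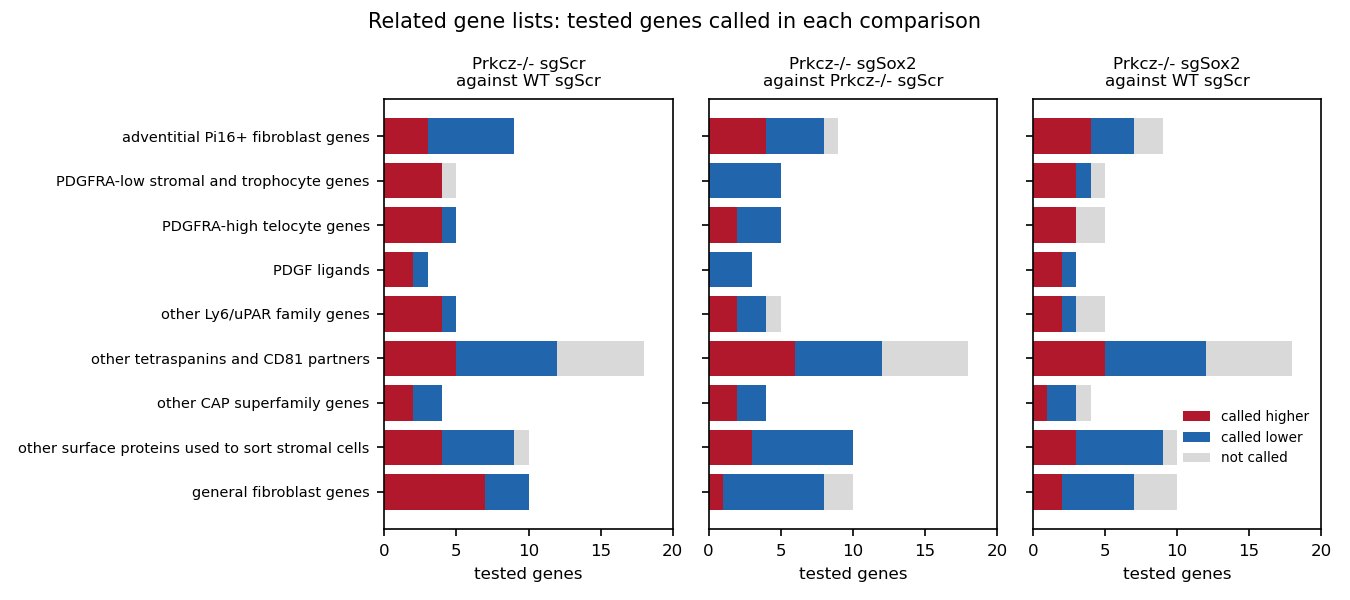
Number of tested genes of each related list called higher, called lower or not called (limma, adjusted p under 0.05) in the 3 comparisons. Of the PDGFRA-low and trophocyte genes, 4 of 5 rose in the knockout-labelled against the WT-labelled libraries and 5 of 5 fell with the Sox2 guide against the knockout-labelled libraries, counts that include Col15a1, which was tested only through its level in the knockout-labelled group.

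Genes whose log2 values followed a marker most closely over the 12 libraries were taken as a description, since all share the 3 groups. The nearest to Pdgfra were Fam129a (Pearson r = 0.997) and Palld (0.995), and to Pdgfrb they were Ssbp3 (0.992) and Rgs17 (0.990). Thy1 was most like Crabp1 (0.994) and Mab21l2 (0.993), of which Mab21l2 averaged 0 in the Sox2-guide, 86.0 ± 8.28 in the knockout-labelled and 303 ± 2.95 in the WT-labelled libraries. Cd34 was most like Lsm6 (0.996) and the sorting marker Pdpn (0.994). Ly6a was nearest to Mmp2 (0.996), a secreted matrix protease with 708 ± 128 in the Sox2-guide, 13.3 ± 2.01 in the knockout-labelled and 80.5 ± 10.4 in the WT-labelled libraries, and to Igf2bp3 (0.994). For Ly6c1 they were Ankrd1 and Ywhae (0.992 each), for Dpt Pla2g7 and Ltv1 (0.989 each), and for Cd81 Ccng1 (0.995) and Vegfd (0.993). The 2 nearest genes of any marker included no other marker, because markers were left out of this search.

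The fibroblast label was checked with 11 general fibroblast genes, of which 10 were tested. Col1a1, the chain of type I collagen, averaged 11494 ± 1789.6 in the Sox2-guide, 57381 ± 2859.6 in the knockout-labelled and 5829 ± 297 in the WT-labelled libraries. Dcn (decorin) averaged 31.5 ± 13.3 in the Sox2-guide, 55.3 ± 20.4 in the knockout-labelled and 1374 ± 93.8 in the WT-labelled libraries. In the knockout-labelled against the WT-labelled libraries 7 of these genes rose and 3 fell, in the Sox2-guide against the knockout-labelled libraries 1 rose and 7 fell, and in the Sox2-guide against the WT-labelled libraries 2 rose and 5 fell. Without Sox2-guide replicate 1 there were 2 higher and 6 lower against the knockout-labelled and 3 higher and 6 lower against the WT-labelled libraries. The collagen VI genes Col6a2 and Col6a1 fell in the Sox2-guide against the knockout-labelled libraries (-4.37 and -2.69), and Col6a2 rose in the knockout-labelled against the WT-labelled libraries (3.84). Col3a1 fell (-0.64) and Col1a2 rose (0.35) in the Sox2-guide against the WT-labelled libraries. S100a4 fell in the knockout-labelled against the WT-labelled libraries (-0.46), and Vim rose in the Sox2-guide against the knockout-labelled libraries (0.53).

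Several markers are not restricted to fibroblasts, so lists of other cell types were read beside them. PDGFRB is also a pericyte protein, and the summed level of 7 pericyte genes, 4 of which had a row, was 37.8 to 61.5 in the Sox2-guide, 277 to 310 in the knockout-labelled and 97.4 to 165 in the WT-labelled libraries. Most of the sum was Notch3 in the Prkcz-/- groups, and Cspg4 was at 0 reads there. Rgs5, a pericyte gene, had 1 read in the Sox2-guide, 93 in the knockout-labelled and 0 in the WT-labelled group. Smooth muscle genes, 7 of 7 with a row, summed to 249 to 346 in the Sox2-guide, 1071 to 1133 in the knockout-labelled and 486 to 536 in the WT-labelled libraries, with Myh11 at 0 reads in the Sox2-guide and WT-labelled groups. Lmod1 averaged 1.11 ± 2.23 in the Sox2-guide, 654 ± 23.4 in the knockout-labelled and 8.03 ± 6.31 in the WT-labelled libraries. It made up 59.6% of the knockout-labelled sum. Smtn, which led the sum in the other groups, was lower in the knockout-labelled (182 ± 39.2) than in the WT-labelled libraries (376 ± 22.4). Of 5 smooth muscle genes tested, 2 rose and 1 fell between these groups (median 0.16). In the Sox2-guide against the knockout-labelled libraries 1 rose and 4 fell (median -2.91). In the Sox2-guide against the WT-labelled libraries 5 fell (median -2.56), or 4 without Sox2-guide replicate 1. These counts include Lmod1, which was tested only through the knockout-labelled group. Cd34, Ly6a and Ly6c1 are also endothelial genes, and the endothelial list, 4 of 7 with a row, summed to 88.4 to 114 in the Sox2-guide, 19.4 to 26.2 in the knockout-labelled and 23.9 to 42.7 in the WT-labelled libraries. Kdr made up nearly all of it with the Sox2 guide, at a mean of 96.9, while Cdh5, a defining endothelial gene, was at 0 reads in both Prkcz-/- groups. Their part in the marker changes was not tested.

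Mesothelial genes, 5 of 6 with a row, summed to 296 to 498 in the Sox2-guide, 10.2 to 16.2 in the knockout-labelled and 1136 to 1296 in the WT-labelled libraries, the order of Cd34 and Dpt. Msln led that sum in the Sox2-guide and WT-labelled groups, at means of 358 and 1111, while Upk3b, Wt1 and Lrrn4 were at 0 reads in both. Immune genes, 4 of 6 with a row, summed to 26.2 to 49.99 in the Sox2-guide, 3.13 to 16.3 in the knockout-labelled and 23.0 to 32.5 in the WT-labelled libraries, mostly Cd68, with the macrophage gene Adgre1 at 0 reads in every group. Glial and neuronal genes, 5 of 5 with a row, summed to 76.9 to 131 in the Sox2-guide, 14.2 to 37.6 in the knockout-labelled and 22.7 to 52.6 in the WT-labelled libraries, with Sox10 at 0 reads in both Prkcz-/- groups. Genes of interstitial cells of Cajal summed to 28.9 to 49.4 in the Sox2-guide, 58.2 to 81.6 in the knockout-labelled and 138 to 215 in the WT-labelled libraries, with Kit at 0 reads throughout. Ano1 made up 77.1% of the WT-labelled sum. Etv1 led the sum in the Sox2-guide and knockout-labelled groups, at means of 34.0 and 63.4. In the knockout-labelled against the WT-labelled libraries 1 of 2 tested genes rose and 1 fell, and the rise lost its call with edgeR and with quantile scaling. Epithelial genes summed to at most 9.61 with the Sox2 guide, 6.10 in the knockout-labelled and 19.7 in the WT-labelled libraries. Their part in the marker changes was likewise not tested.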

How the data were processed

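Messenger RNA was measured by QuantSeq 3′ tag sequencing of 200 ng of total RNA, read from 1 end to 75 nt, per the labels' protocols. The authors deposited a depth-normalised signal per gene in which each library sums to 10000000. Reads were placed on GRCm38, per the submitters' processing notes. The sources used here do not name the aligner or counter, nor any use of strand or molecular identifiers. Dividing by the step of low values gave whole reads for 100% of values (tolerance 0.01 read), used as counts in the edgeR 4.0.16 and DESeq2 1.42.0 alternatives. Symbols came from a reference list of gene names, with 23002 identifiers matched and 104 not. Coordinates came from GENCODE vM21 and promoters from RefSeq. Group means of all 12 libraries were fitted with limma 3.58.1 (trend, R 4.3.3) on log2(value + 1), with p-values adjusted over 12676 genes. The fit was tested on simulated data.

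Members and lists were chosen with earlier results of these data known. Named genes were the members, their close families, Prkcz and Sox2, the 2 called genes of smallest adjusted p per list, comparison and direction, and the 2 genes most like each member (mean of at least 50). For markers of other cell types, where list sums are given, only leading or defining genes are named. Alternatives covered scaling, pseudocount, filter, test, samples in the fit, library weights, a replicate block and left-out libraries.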

Additional observations from a re-analysis of the deposited data

Results flagged for a closer look

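Of 25 groups of 4 libraries checked, 5 held a library far from the other 3, where chance flags about 1 in 20 groups. Sox2-guide replicate 1, the library that stood apart from its replicates over all genes, was the one for Ly6c1 (2411 normalised reads, against 1700.3 to 1818 in the others) and for Cd81 (2034, against 1518 to 1551). The same library held the only Thy1 read of its group (1.92 normalised reads). Knockout-labelled replicate 4 held the only 2 Dpt reads of its group (6.47 normalised reads), and WT-labelled replicate 4 the only Ackr4 read of the series (3.29 normalised reads). The last 3 rest on 1 or 2 reads each. The other libraries of those groups had 0 reads, so any read would be flagged and the rate of 1 in 20 does not apply.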

How the results depend on the processing

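Of the 24 marker changes, 23 kept their direction and their call in 555 of 555 values under the alternatives. Cd81 in the Sox2-guide against the WT-labelled libraries kept its direction and lost its call in 17 of 24, with log2 changes of 0.12 to 0.27 and adjusted p of 0.0358 to 0.28, among them 8 of the 12 fits that left out 1 library. The markers called numbered 8, 8 and 7 to 8 in the 3 comparisons, and all genes called 7138 to 9469, 6464 to 8394 and 5787 to 6982. With quantile scaling the median change of all genes shifted by -0.17 (log2) in the knockout-labelled against the WT-labelled libraries, and every marker kept its direction relative to that shift. Same-numbered replicates did not deviate together (r of -0.04 to 0.13, with 3 of 12 pairs best with their own number), so the numbers were not taken to pair libraries. With a replicate block, 8, 8 and 7 markers were called, and the log2 ratio of Pdgfra to Pdgfrb differed by -3.80 and -3.84 for the Sox2 guide against the knockout-labelled and the WT-labelled libraries, with a permutation p of 0.125, the smallest 4 pairs allow. Leaving out 1 library gave -3.96 to -3.72 and -4.00 to -3.64, where 3 against 4 libraries cannot go below an exact p of 0.0571. Depth limits the near-zero values of Thy1, Dpt, Ly6c1 and Ackr4, whose fitted changes move with the unit added before the log.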
